A study of Mus musculus with 4 samples.

Results

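Resting CD4 CD8 double positive (DP) thymocytes of the turnover library were split by whether a productive T cell receptor alpha (TRA) chain had been recovered from the cell. Members were barcodes with 1000 to 6000 UMIs (unique molecules) in the gene expression table, no UMI of the proliferation genes Mki67 and Top2a, at least 1 Rag1 UMI, at least 5 UMIs of Cd8a plus Cd8b1, no UMI of Itm2a, a gene induced during selection, and a productive T cell receptor beta (TRB) contig in the matched V(D)J library. Of 4374 turnover barcodes, 2181 met this rule, and the series held 8961 barcodes in all. A productive full-length TRA contig was found in 951 members, or 43.6% (95% exact binomial interval 41.5 to 45.7), and none was found in 1230. The thresholds on Mki67, Top2a, Itm2a, Rag1, Cd8a and Cd8b1 applied to both groups, and the split used only the V(D)J library.

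The study profiled thymocytes of wild type mouse thymi 28 days after transplantation, sorted as DN3-DN4, immature single positive and DP cells, in a condition named turnover and another named autonomy. In turnover, the resident thymocytes are replaced by progenitors that arrive from outside, and in autonomy the thymus keeps producing T cells from its own cells. The labels give neither the hosts' genotype nor the number, age or sex of the animals. Per condition, 1 droplet 5′ expression library and the matched V(D)J library were deposited. No replicate existed, so nothing was tested between animals. Intervals (95%) reflect counting error alone and take UMIs and cells as independent.

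DP thymocytes carry a finished beta chain and keep rearranging the alpha locus with the recombinase proteins RAG1 and RAG2. Each V-to-J joining step can be followed by another that uses a more upstream V and a more downstream J segment, until an alpha chain pairs with the beta chain and is signalled through. The delta locus lies inside the alpha locus and is cut out by V-to-J alpha joining. A receptor that binds self peptide and MHC gives positive selection, which raises CD5, CD69 and the early growth response factors, and a cell without a usable receptor dies by neglect.

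A contig was called productive by the submitters' software where it could be translated across the V-J junction. The 3 pairs of junctions printed here are examples of a productive and an unproductive joint, of the kind with a stop codon, which 91 of the 921 unproductive contigs had: within each pair the same V and J segments were joined, the productive junction came from a member with productive TRA, and the unproductive junction came from a member without one. Sequences are mouse, 5′ to 3′ on the coding strand, from the deposited contig tables, and capitals mark a stop codon in the reading frame of the junction.
TRAV6D-7 and TRAJ30, productive: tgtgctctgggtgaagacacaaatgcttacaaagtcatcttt
TRAV6D-7 and TRAJ30, unproductive: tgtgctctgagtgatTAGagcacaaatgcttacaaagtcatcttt
TRAV16N and TRAJ43, productive: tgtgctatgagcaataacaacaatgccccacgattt
TRAV16N and TRAJ43, unproductive: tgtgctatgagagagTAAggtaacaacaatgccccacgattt
TRAV13N-1 and TRAJ56, productive: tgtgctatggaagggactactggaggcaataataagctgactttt
TRAV13N-1 and TRAJ56, unproductive: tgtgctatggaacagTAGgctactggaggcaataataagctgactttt

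The members held 1044 productive TRA contigs, which made 1043 distinct chains by junction, V and J, with 1 chain found in more than 1 cell. The median productive contig rested on 3 UMIs, and 165 of them on 1 UMI. The members also held 921 unproductive TRA contigs with a median of 2 UMIs, of which 746 were in cells without productive TRA. Of the 921, 194 were full length and called unproductive, 569 were full length with no call, 158 were not full length, and 91 had a stop codon in the junction. Of the 1230 cells without productive TRA, 520 had no TRA contig and 710 had unproductive contigs only. Unproductive here includes contigs with no call and contigs not full length. A missing contig does not show that the chain was absent: 36.5% of the 520 cells had a UMI of an alpha V segment gene. Of the 951 cells with productive TRA, 691 had 1 productive contig and no other, 169 had 1 productive contig beside an unproductive one, and 91 had 2 or more productive contigs.

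Depth was alike in the groups. The cells with productive TRA had a median of 1893 UMIs (quartiles 1637.5 to 2264) and the cells without had 1872.5 (1612 to 2277), a ratio of 1.01. Summed over cells, the groups held 1949452 and 2495720 UMIs. The median number of genes was 1149 and 1136, the median productive TRB signal was 16 and 17 UMIs, and the median mitochondrial share was 2.89% and 3.01%. The share with productive TRA was 40.1% (34.8 to 45.6) among members of 1000 to 1500 UMIs, 43.7% (40.6 to 46.9) from 1500 to 2000 UMIs, 45.2% (41.4 to 48.9) from 2000 to 3000 UMIs and 43.4% (36.1 to 50.9) from 3000 to 6000 UMIs, with overlapping intervals. The groups did differ in the number of TRB chains: 90 cells with productive TRA (9.46%) and 58 cells without (4.72%) had more than 1 productive TRB contig. In the autonomy library, chosen by the same rule, these shares were 9.66% and 9.79%.

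**Figure D1:**
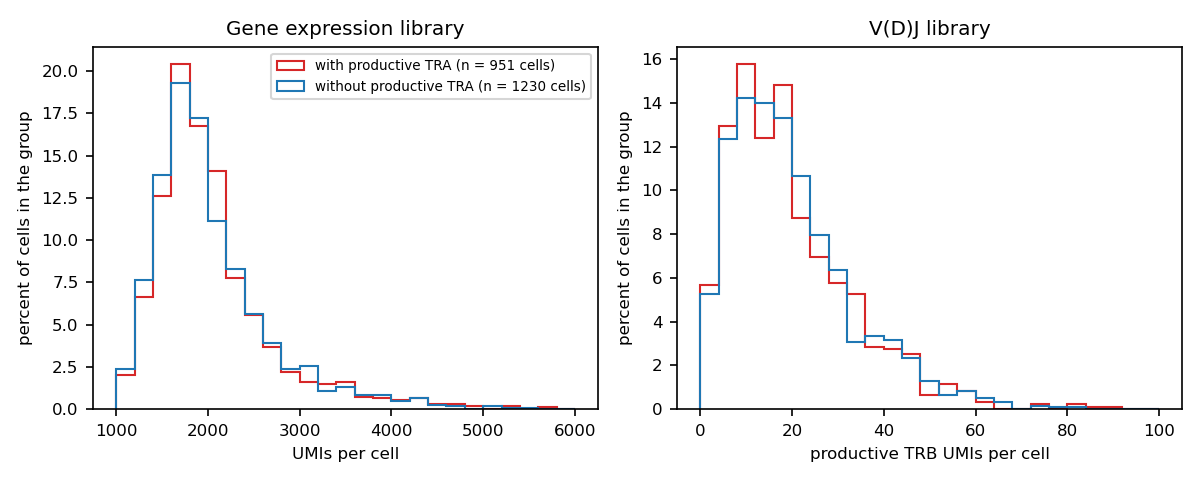
Distribution of UMIs per cell in the gene expression library (left) and of productive TRB UMIs per cell in the V(D)J library (right), as percent of the 951 cells with and the 1230 cells without productive TRA in turnover. The outlines of the groups lie over each other, with medians of 1893 and 1872.5 UMIs per cell and of 16 and 17 TRB UMIs.

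The rule itself fixed Rag1, Cd8a and Cd8b1. Among DP markers that it did not use, Cd4 stood at 980 CPM (UMIs scaled to a group total of 1000000) with and 996 CPM without productive TRA, Rag2 at 610 and 621 CPM, Dntt at 2351 and 2436 CPM and Ccr9 at 2249 and 2033 CPM. Erythroid markers were at 0, as were the B cell markers Cd79a and Ms4a1, the egress receptor gene S1pr1 and Il7r. The B cell markers Cd79b and Ighm gave 652 CPM with and 702 CPM without productive TRA. Of 8 macrophage markers, 5 were detected with productive TRA and 8 without, and they gave 9 UMIs in 4 cells with productive TRA and 111 UMIs in 15 cells without, and the 6 dendritic markers 12 UMIs in 7 cells and 165 UMIs in 13 cells. The 6 cycling markers gave 9 UMIs in 7 cells with and 65 UMIs in 23 cells without productive TRA, with Mki67 and Top2a at 0 by rule. In the turnover library 56 members (2.57%) shared a TRB chain with another barcode, and 17 members had a barcode also present in the autonomy gene expression library.

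The comparison across genes asked what goes with a productive alpha chain in cells that met the same thresholds. The groups also differed in macrophage, dendritic and cycling marker UMIs and in the number of TRB chains, as given above. Cd69 and Cd5, surface proteins raised by receptor signalling, had the highest ratios of all genes tested, and Egr1, below the count minimum, stood higher still. Apart from these, the expression of the groups was close: 89.6% of the 5726 genes with at least 100 UMIs over both groups lay within 1.25-fold, and the median log2 ratio was 0.02. At least 1.5-fold higher with productive TRA were 42 genes (0.733% of those tested), and 29 genes (0.506%) were at least 1.5-fold lower. TRA genes are left out of these counts because they come from the transcripts that made the split. Counting error alone spans 0.662 to 1.52 for a gene of 100 UMIs without a difference, and 32 of the 42 and 24 of the 29 genes had under 200 UMIs. Of the 1661 genes with 500 UMIs or more, Tox alone was past 1.5-fold (0.0602%) and no gene was lower by that much. With TMM factors in place of group totals the counts were 32 higher and 36 lower, and with median-of-ratios size factors 33 and 34, so the balance of higher against lower genes depended on the scaling.

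**Figure D2:**
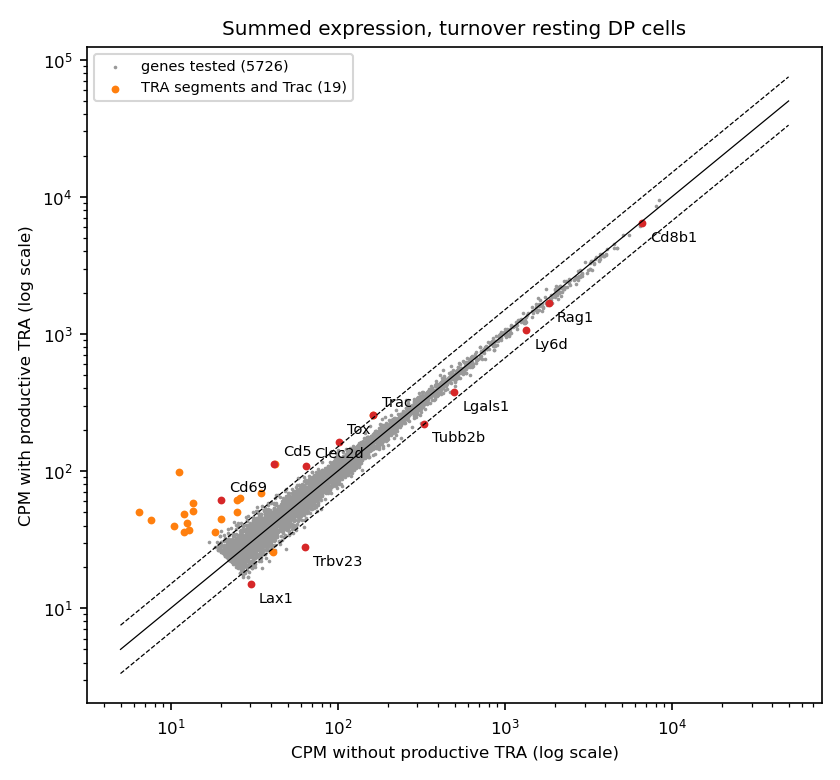
Level of each gene in the summed cells with productive TRA (vertical) against the summed cells without (horizontal), in CPM on log scales; grey points are the 5726 genes tested, orange points TRA segments and Trac, red points named genes, and dashed lines mark 1.5-fold. Cd69 and Cd5 stand above the grey cloud at 61.0 against 20.03 CPM and 112 against 41.7 CPM, and Trbv23 and Lax1 below it.

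Cd69, a membrane protein that appears soon after receptor engagement, lies on chromosome 6 from 129267324 to 129275375 (GRCm38). It had 119 UMIs in 95 of the 951 cells with productive TRA and 50 UMIs in 46 of the 1230 cells without. This made 61.0 and 20.03 CPM, a ratio of 3.05 (2.17 to 4.33). In the autonomy library the ratio was 1.39. The share of cells with a Cd69 UMI was 9.99% (8.16 to 12.1) with and 3.74% (2.75 to 4.96) without productive TRA. After every cell was thinned to 1000 UMIs, the shares were 5.36% and 1.87%, against 0.438% in cycling cells of the same library without productive TRA, whose median depth was 17672 UMIs before thinning.

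Cd5, an inhibitory receptor whose surface level follows the strength of the receptor signal, lies on chromosome 19 from 10718107 to 10739026. It had 219 UMIs in 127 cells with productive TRA and 104 UMIs in 84 cells without, 112 and 41.7 CPM, a ratio of 2.70 (2.13 to 3.44). The autonomy ratio for Cd5 was 2.02 (1.70 to 2.41). A Cd5 UMI was found in 13.4% (11.3 to 15.7) of cells with and 6.83% (5.48 to 8.39) of cells without productive TRA, and thinned to 1000 UMIs in 7.89% and 3.17%. The thinned share in cycling cells without productive TRA, 3.72%, was no lower than that of resting cells without. The highest count of Cd5 in a cell was 14 with and 4 without productive TRA.

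Egr1, an immediate early transcription factor, had 83 UMIs in 36 cells with productive TRA, up to 16 in a cell, and 8 UMIs in 7 cells without. These were 42.6 and 3.21 CPM, a ratio of 13.3 (6.44 to 31.8), and 3.24 in autonomy. With fewer than 100 UMIs Egr1 was outside the tested genes and was chosen after its values were seen. In cells thinned to 1000 UMIs the share with an Egr1 UMI was 2.21% and 0.488%, and the ratio of levels was 7.39. Other genes induced by receptor signals had small counts. Nr4a1, which encodes a nuclear receptor, had 21 UMIs in 5 cells with productive TRA, of which 12 were in 1 cell. Without productive TRA it had 2 UMIs in 2 cells. Egr2 had 6 UMIs with and 0 without productive TRA, and Egr3 had 1 and 0.

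These transcripts were detected in a minority of cells at this depth, which does not give the share of cells that express them. At least 1 UMI of Cd5, Cd69 or Egr1 was found in 220 of 951 cells with productive TRA (23.1%, 20.5 to 25.9) and in 133 of 1230 without (10.8%, 9.13 to 12.7). Cd5 and Cd69 were found together in 22 cells with and 3 cells without productive TRA. All 3 transcripts were found in 6 cells with productive TRA and in 0 of 1230 without, which allows a share of cells with such UMIs of up to 0.244% by the limit of 3 counts and 0.299% by the exact interval. Without the cells that had a Cd69 UMI, the Cd5 ratio was 2.40 and the Egr1 ratio 9.66.

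The list of genes that respond to receptor signals and selection had 28 members, of which 13 had 100 UMIs or more, and 4 of these were at least 1.5-fold higher and none lower (0.733% and 0.506% over all tested genes). The median log2 ratio was 0.21, against 0.02 over all genes. Besides Cd69 and Cd5 these were Ikzf2, which encodes the zinc finger factor Helios, with 100 and 81 UMIs and a ratio of 1.58 (1.17 to 2.15), and Gata3, a factor needed for CD4 lineage cells, with 116 and 99 UMIs and a ratio of 1.5 (1.14 to 1.98). Gata3 fell under 1.5-fold with TMM factors (1.48) and with median-of-ratios factors (1.48). Cd6, a relative of CD5, had 277 and 249 UMIs and a ratio of 1.42 (1.20 to 1.70). Cd28, the costimulatory receptor gene, had a ratio of 1.16 (1.06 to 1.27), and Id3, a target of EGR factors, 1.09. Cd27, Trat1 and Coro1a stood at 1.03, 0.998 and 0.943. So 9 of the 13 measured members were within 1.5-fold.

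Tox, which encodes a nuclear factor needed for CD4 lineage development, lies on chromosome 4 from 6686353 to 6991557. It had 315 UMIs in 218 cells with productive TRA and 252 UMIs in 206 cells without, at 162 and 101 CPM, a ratio of 1.60 (1.35 to 1.90). Autonomy gave 1.64 (1.38 to 1.95). Clec2d, a C-type lectin ligand gene, had 212 and 161 UMIs and a ratio of 1.69 (1.37 to 2.08), and Cd2, an adhesion receptor gene, 227 and 202 UMIs and a ratio of 1.44 (1.18 to 1.75), with 1.35 and 1.28 in autonomy. Without cells that had a contig called Multi, the Cd2 ratio was 1.16.

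**Figure D3:**
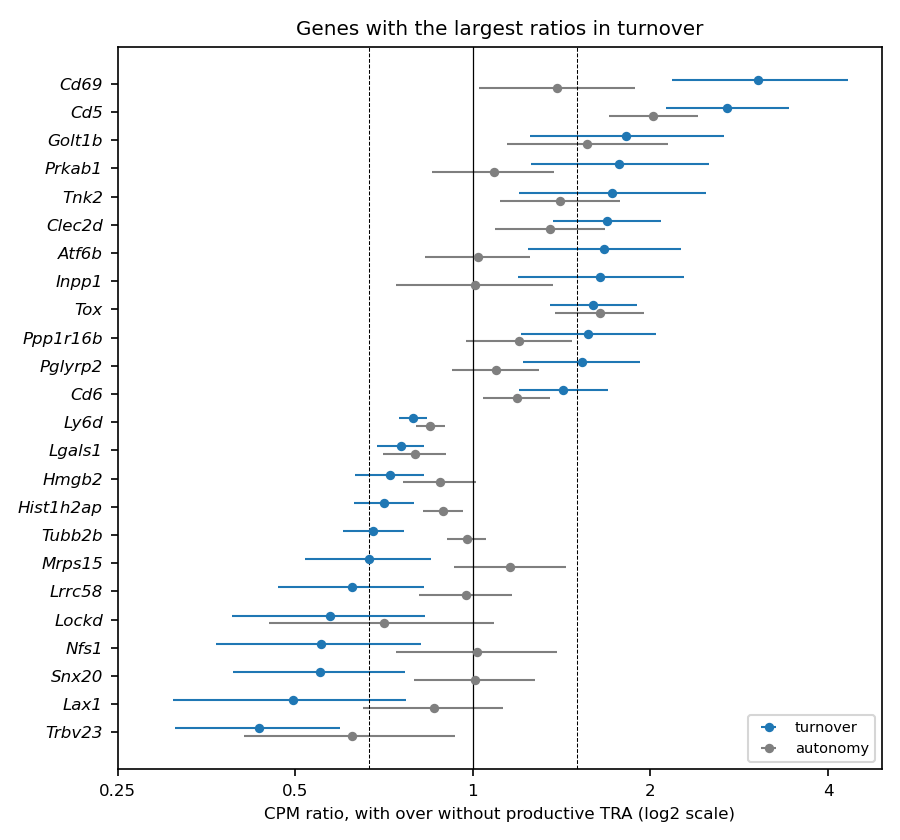
Ratio of CPM with over without productive TRA (horizontal, log2 scale) for the 12 genes with the highest and the 12 with the lowest ratios in turnover, ranked by the interval bound nearest 1, with 95% counting intervals, in turnover (blue) and autonomy (grey); dashed lines mark 1.5-fold. Cd5, Tox and Golt1b lie past the upper line in both libraries, while Atf6b, Inpp1 and Prkab1 lie near 1 in autonomy.

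Of the 12 highest genes, Clec2d and those given next were in none of the lists. Golt1b had a ratio of 1.82 (1.25 to 2.67), and 1.56 in autonomy. Prkab1, a subunit gene of the energy sensor AMPK, had 1.77 and 1.08, Tnk2, a tyrosine kinase gene, 1.72 and 1.41, Atf6b, a gene of the unfolded protein response, 1.67 and 1.02, and Inpp1, an inositol phosphatase gene, 1.65 and 1.01. Ppp1r16b had 1.57 and 1.20, and Pglyrp2 1.53 and 1.09. Of the genes tested in both libraries, 41 were at least 1.5-fold higher in turnover and 22 in autonomy, and over all genes tested in autonomy 37 were higher (0.553%) and 34 lower (0.508%). Both sets held Cd5, Echdc1, Golt1b and Tox, which is 9.76% of the turnover set and 18.2% of the autonomy set. The libraries hold different cells, and no test of the difference between their ratios could be made.

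Across the finer classes of TRA contigs, Cd5, Cd69, Tox and Trac were all lowest with no TRA contig and highest in 1 of the 2 classes that held a further contig beside a productive one, with steps of different size between. Cd5 stood at 35.8 CPM (25.3 to 49.1) in cells with no TRA contig and 46.1 CPM (35.6 to 58.6) with unproductive contigs only. It stood at 82.3 CPM (67.8 to 98.9) with 1 productive contig alone, 193 CPM (151 to 243) with 1 productive and an unproductive contig and 168 CPM (116 to 234) with 2 or more productive contigs. The intervals of the first pair of classes overlapped, and those of the 3 classes with productive TRA lay above both. Cd69 was at 15.1, 23.7, 52.4, 64.3 and 113 CPM in the same order, and Egr1 at 2.82, 3.49, 48.1, 29.5 and 29.6 CPM.

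Trac, the constant gene of the alpha chain, was at 104 CPM (85.9 to 126) with no TRA contig, 207 CPM (184 to 231) with unproductive contigs only and 209 CPM (185 to 235) with 1 productive contig alone. It was at 346 CPM (289 to 411) with 1 productive and an unproductive contig and 414 CPM (330 to 513) with 2 or more productive contigs. In turnover, the intervals of the class with unproductive contigs only and the class with 1 productive contig overlapped for Trac. They did not overlap for Cd5, Cd69 and Egr1. They overlapped for Tox too, which was at 75.3 CPM (59.7 to 93.7), 120.0 CPM (103 to 139), 140 CPM (121 to 161), 220 CPM (175 to 273) and 202 CPM (145 to 274) in the same order. Set against the 710 cells with unproductive contigs only, the cells with productive TRA had ratios of 2.44 (1.84 to 3.26) for Cd5, 2.57 (1.74 to 3.89) for Cd69, 12.2 for Egr1, 1.24 (1.07 to 1.44) for Trac and 1.35 (1.11 to 1.63) for Tox. In that comparison 41 of 4937 genes (0.83%) were at least 1.5-fold higher and 24 (0.486%) lower. Cells with unproductive contigs only, set against cells with no TRA contig, had ratios of 1.98 (1.58 to 2.48) for Trac, 1.59 (1.22 to 2.11) for Tox, 1.29 (0.851 to 1.97) for Cd5 and 1.58 (0.846 to 3.06) for Cd69. The last 2 intervals include 1, and 32 of 4035 genes (0.793%) were at least 1.5-fold higher and 14 (0.347%) lower. In autonomy, Cd69 stood at 36.9 CPM with unproductive contigs only and 35.7 CPM with 1 productive contig alone. The Cd5 intervals of these classes overlapped there (73.5 to 101.4 and 100.5 to 134.6), while those of Egr1 did not.

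The classes with more than 1 TRA contig also differed in depth and in TRB chains. Median UMIs per cell were 1867.5, 1882, 1848, 2047 and 1963 in the order used above, and cells with more than 1 productive TRB contig made up 3.46%, 5.63%, 7.96%, 12.4% and 15.4%. Both values were highest in the 2 classes with a further contig beside a productive one, where Cd5 and Trac were also highest. Over the other classes the share with more than 1 TRB contig rose in the same order as Cd5 and Trac, and median depth did not. The part of depth and of TRB chains in the result was not tested. A subset of cells had 1 productive TRB contig and at most 2 productive TRA contigs. Its Cd5, Cd69 and Egr1 ratios were 2.72, 2.84 and 13.2, against 2.70, 3.05 and 13.3 in all members. Nr4a1, which had few UMIs, stood at 6.19 in the subset and 13.4 in all members. With exactly 1 TRA contig of any kind in the group with productive TRA, the Cd5 ratio was 1.97 and the Cd69 ratio 2.62.

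**Figure D4:**
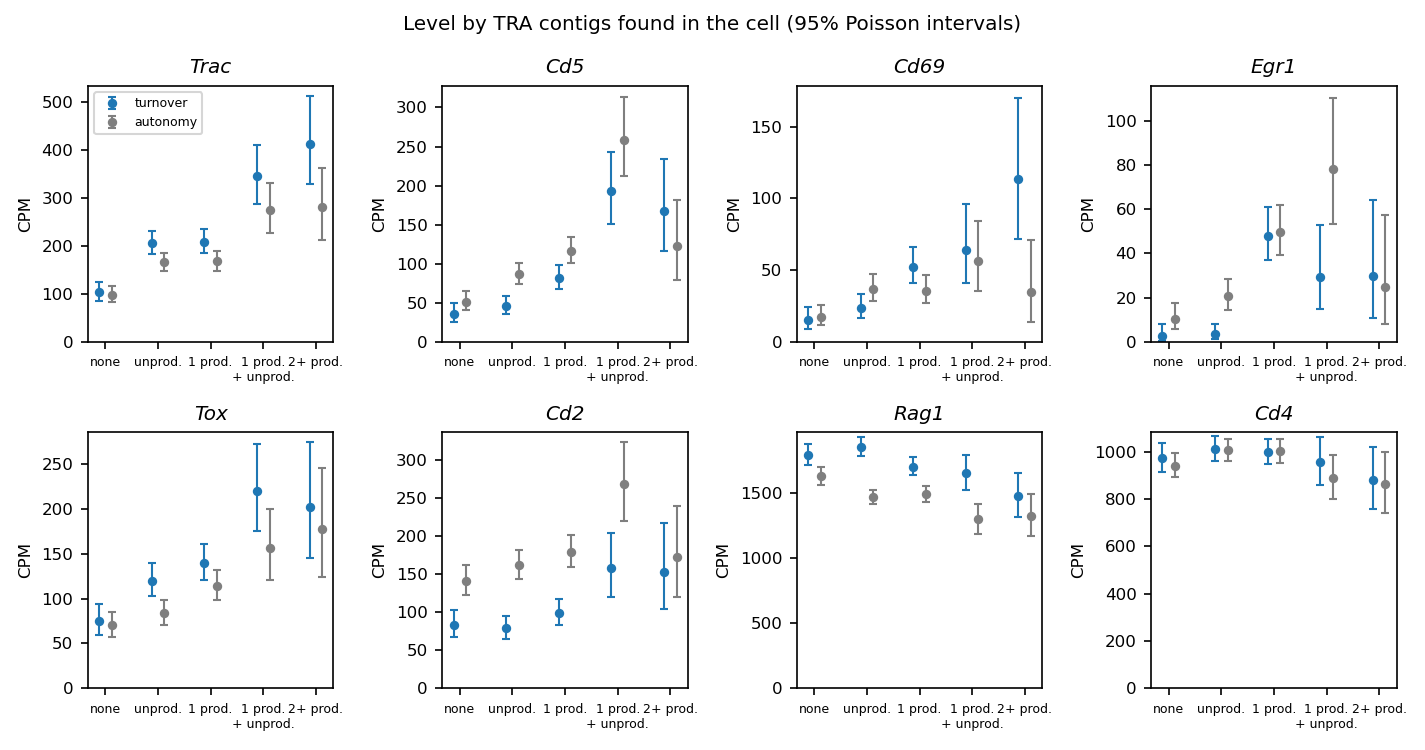
CPM of 8 genes in the classes of TRA contigs (none, unproductive only, 1 productive, 1 productive with an unproductive one, 2 or more productive), with 95% Poisson intervals, in turnover (blue) and autonomy (grey). In turnover Trac reaches 207 CPM with unproductive contigs alone, while Cd5, Cd69 and Egr1 are at 46.1, 23.7 and 3.49 CPM there and higher in the classes with a productive contig.

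The genes of the alpha locus are given as a description, since the V(D)J library amplifies the same transcripts and the split was made from them. Trac had 500 UMIs with and 407 without productive TRA, at 256 and 163 CPM, a ratio of 1.57 (1.38 to 1.80). Of 189 TRA genes, 19 had 100 UMIs or more, and 18 of these were at least 1.5-fold higher, against 0.733% of all genes tested. Trav7-5 was highest, with 193 and 28 UMIs and a ratio of 8.82. Trav8-2 was the exception, with 50 and 102 UMIs and a ratio of 0.628 (0.438 to 0.889). Many V segments have near-identical copies in the D and N duplications of the locus, so reads may be split between them. A UMI of any V segment was found in 85.1% of cells with productive TRA, 76.6% of those with unproductive contigs only and 36.5% of those with no TRA contig.

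The genes of the delta locus had few UMIs. Of 11 listed TRD genes 6 had a UMI and 1, Trdv2-2, passed the minimum, and it was not past 1.5-fold. The 11 genes summed to 119 UMIs with and 239 without productive TRA, a ratio of 0.637 (0.507 to 0.797), and to 0.691 (0.495 to 0.955) in autonomy. Trdc, the delta constant gene, had 24 UMIs in 23 cells and 56 UMIs in 44 cells, a ratio of 0.549 (0.325 to 0.900), which is below the count minimum. Trdv1 had 27 and 69 UMIs, Trdv5 3 and 23, and Trdv2-2, at 62 and 85, a ratio of 0.934. By class Trdc was at 26.3 CPM with no TRA contig, 19.5 CPM with unproductive contigs only and 12.4 CPM with 1 productive contig alone. It was at 10.7 CPM (4 UMIs) with 1 productive and an unproductive contig and 14.8 CPM (3 UMIs) with 2 or more productive contigs. The intervals of neighbouring classes overlapped. In autonomy the Trdc ratio was 0.652 (0.311 to 1.29), which includes 1. Its levels there were 14.1, 5.03, 5.64, 9.77 and 0 CPM in the same order.

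The J segments of the alpha contigs were numbered from the 3′ end of the locus, so a high number is an upstream segment, used early. Productive contigs had a median TRAJ number of 26 (quartiles 12 to 38), and unproductive contigs in cells without productive TRA had 31 (18 to 42). A number above 30 was carried by 41.3% of 1044 productive and 52.6% of 616 unproductive contigs. In autonomy the medians were 17 and 22. Among members with 1 productive TRA contig, 353 had a TRAJ number above 30 and 507 a lower one. Rag1 was at 1482 CPM (1400 to 1568) in the former and 1879 CPM (1792 to 1970) in the latter. These Rag1 levels leave out cells without a Rag1 UMI, which the rule removed. Cd5 was at 125 CPM (102 to 152) and 88.7 CPM (70.5 to 110), with overlapping intervals, and so was Cd69, at 51.1 and 58.4 CPM.

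Recombination genes stood at close levels in the groups. Rag1 had 3255 UMIs with and 4566 without productive TRA, at 1670 and 1830 CPM, a ratio of 0.913 (0.872 to 0.955), with at least 1 UMI in every member by the rule. Over the classes Rag1 was at 1795, 1855, 1703, 1654 and 1474 CPM. Rag2 had a ratio of 0.983 (0.911 to 1.06) and Dntt, the terminal transferase gene, 0.965 (0.929 to 1.003). Of the 20 recombination and end-joining genes, 12 had 100 UMIs and none of them was past 1.5-fold in either direction. The member with the lowest ratio among the 12 was Hmgb2, a DNA bending protein gene, at 0.723, and the next was the ligase partner gene Xrcc4 at 0.794.

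The factors linked to alpha rearrangement and to DP lifespan had 22 members, all past the minimum, of which Gata3 was 1.5-fold higher and none lower (0.733% and 0.506% over all tested genes). Bcl2l1, which encodes the survival protein BCL-XL, had a ratio of 0.936 (0.810 to 1.08). Tcf12, the gene of the E protein HEB, was at 0.889 and Runx1 at 1.11. The architectural genes Ctcf, Rad21 and Smc1a were at 0.819, 0.941 and 0.953.

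Of the 20 DP stage genes Tox alone was past 1.5-fold (0.733% of tested genes were higher), and the median log2 ratio was -0.03. The coreceptor genes Cd4, Cd8a and Cd8b1 had ratios of 0.984, 1.02 and 0.978, and Ccr9, the chemokine receptor gene of cortical thymocytes, 1.11 (1.06 to 1.15). Slamf6, a receptor gene used in the selection of innate-like T cells, was at 0.815 (0.702 to 0.945). Ly6d, a small surface protein gene, had 2081 and 3364 UMIs and a ratio of 0.792 (0.749 to 0.837), and 0.848 in autonomy.

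None of the 20 CD3 and proximal signalling genes was past 1.5-fold, with a median log2 ratio of 0.07. Cd3e, Lck and Zap70 stood at 1.05, 1.04 and 1.15, and the highest was the adaptor gene Grb2 at 1.30. The beta constant genes Trbc1 and Trbc2 were at 1.01 (0.961 to 1.06) and 0.934 (0.906 to 0.963). Productive TRB junctions had a median of 42 bases in both groups. Among beta V segments, the shares of productive contigs lay furthest apart for TRBV12-1 and TRBV5. TRBV12-1 made up 8.24% (6.64 to 10.1) with and 5.98% (4.75 to 7.42) without productive TRA. TRBV5 made up 7.18% (5.69 to 8.92) and 9.01% (7.50 to 10.7). For both segments the intervals overlapped.

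Transcripts carried over from earlier stages were few. Of 17 pre-TCR, Notch and DN3 genes, 3 passed the minimum and none of them was past 1.5-fold. All 17 genes summed to 281 and 435 UMIs, a ratio of 0.827 (0.709 to 0.963). Ptcra, the pre-TCR alpha chain gene, had a ratio of 0.838 (0.673 to 1.04). Il2ra had 21 and 36 UMIs and Myc 12 and 16.

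Among survival and death genes, 12 of 18 passed the minimum and none of these was past 1.5-fold. The median log2 ratio of these genes was -0.003. Bcl2l11, which encodes the death inducer BIM, was the highest at 1.34 and Bax the lowest at 0.836, with the survival gene Mcl1 at 1.29. The p53 target Bbc3, with 25 and 60 UMIs, was below the minimum. All 20 listed ribosomal protein genes had ratios below 1, from 0.877 to 0.991, and their sum a ratio of 0.938 (0.929 to 0.947). Their median log2 ratio was -0.09, against 0.02 over all genes tested. In autonomy the ratios of this list ran from 0.896 to 1.10, and the sum had a ratio of 0.941 (0.931 to 0.951). None of the 11 S phase and 4 G2/M phase genes tested was past 1.5-fold, and the lists summed to ratios of 0.999 and 0.935. In the mature thymocyte, cycle phase, energy metabolism, interferon, immediate early, quiescence and chromatin lists, no member that passed the minimum was past 1.5-fold. Members below the minimum were not tested.

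**Figure D5:**
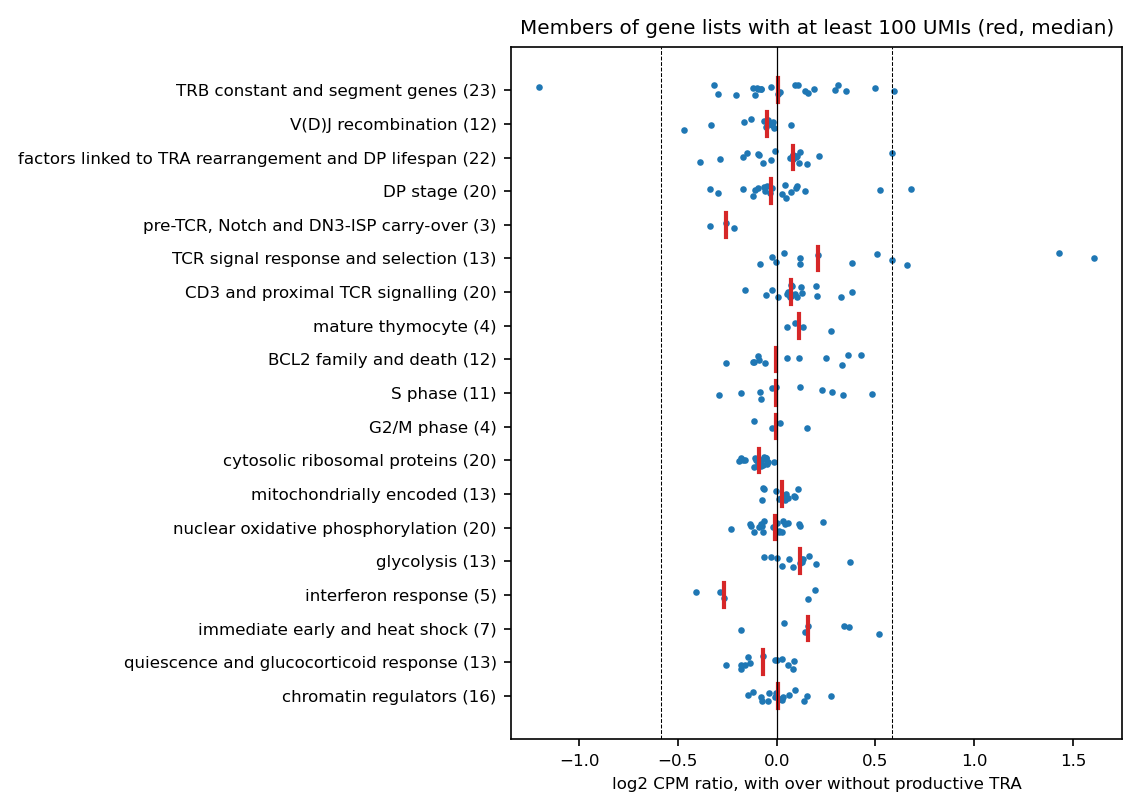
Log2 ratio of CPM with over without productive TRA (horizontal) for each member with at least 100 UMIs of the gene lists, with the number of such members in brackets and the list's median in red; dashed lines mark 1.5-fold. The receptor signal list has 4 of 13 members past the upper line and the list of ribosomal protein genes lies wholly below 0.

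Ranked by the interval bound nearest 1, the 12 lowest genes included several whose ratios were within 1.5-fold and rested on many UMIs. Hmgb2 had 337 and 597 UMIs and a ratio of 0.723 (0.630 to 0.827), the histone gene Hist1h2ap 436 and 789 UMIs and 0.707 (0.628 to 0.796), the tubulin gene Tubb2b 432 and 815 UMIs and 0.679 (0.602 to 0.763), and Lgals1, the galectin 1 gene, 732 and 1242 UMIs and 0.755 (0.688 to 0.827). In autonomy Tubb2b was at 0.976, Hist1h2ap at 0.889, Hmgb2 at 0.879 and Lgals1 at 0.798. Without the cells that had a UMI of another cycling marker, Hmgb2 stood at 0.880, Hist1h2ap at 0.727, Tubb2b at 0.684 and Lgals1 at 0.770, and Cd5 and Cd69 at 2.85 and 3.09. Without the cells that had a macrophage or dendritic marker UMI, Lgals1 was at 0.755 and Cd5 and Cd69 at 2.69 and 3.12.

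Lax1, which encodes an inhibitory adaptor of lymphocyte signalling, had 29 and 75 UMIs and a ratio of 0.495 (0.311 to 0.769), and 0.859 in autonomy. Nfs1 and Snx20 were at 0.553 and 0.552 in turnover and at 1.02 and 1.01 in autonomy. The noncoding RNA Lockd had 43 and 96 UMIs and a ratio of 0.573 (0.391 to 0.830). Lrrc58 and Mrps15 were at 0.624 and 0.666, and at 0.973 and 1.16 in autonomy. Trbv23 had 54 UMIs in 7 cells and 159 UMIs in 18 cells, a ratio of 0.435 (0.313 to 0.596), which rests on few cells that each hold many UMIs. Trbv23 was the only gene at least 1.5-fold lower in both libraries, of 26 in turnover and 11 in autonomy among the genes tested in both.

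Cells left out by the thresholds gave further values. In cells that met the rule but had 1 Itm2a UMI, 60 of 158 (38.0%, 30.4 to 46.0) had a productive TRA contig, and with 2 or more Itm2a UMIs 13 of 20 (65.0%, 40.8 to 84.6). In cells with 5 or more UMIs of Mki67 plus Top2a and a productive TRB contig, the share was 58 of 515 (11.3%, 8.66 to 14.3). Autonomy had 880 of 2198 members with productive TRA (40.0%, 38.0 to 42.1), and 89.3% of its members shared a TRB chain with another barcode, so that its cells were less independent.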

How the data were processed

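The deposited gene expression tables give UMI counts for each gene in each barcode, and the deposited contig tables hold counts of reads and UMIs per contig with segment and productive calls. Per the submitters' processing notes Cell Ranger 3.0.2 and Seurat 3.1.3.9002 were used, with the mm10 build. The cell calling and annotation are not given in the sources used here. Contig lengths, also deposited in another column by the authors, were not used. The rule and the gene lists were chosen with earlier results of these data known. UMIs were summed per group and divided by the group total (CPM). Ratios carry a conditional exact binomial interval, levels an exact Poisson interval and shares a Clopper-Pearson interval. Genes needed 100 UMIs over both groups, and 1.5-fold was the threshold. A count of 0 was given a limit of 3 counts. Doublets were not called, and leaving out cells with more than 1 productive TRB contig was an alternative. The text names the 12 genes highest and the 12 lowest by the interval bound nearest 1, list members past 1.5-fold, a set of genes always given, and Egr1 to Egr3, Nr4a1, Cd2, Cd6, Cd27, Cd28, Ccr9, Clec2d, Tox, Slamf6 and list members given as examples, chosen after their values were seen. In all, 25166 of 31053 symbols matched RefSeq's GRCm38.p6 table, from which positions come. The turnover tables hold 20163286 UMIs and 12034 contigs, those of autonomy 16388810 UMIs from 4587 barcodes and 11821 contigs. TMM factors came from edgeR 4.0.16 in R 4.3.3. All else was computed with scipy 1.17.1, pandas 2.3.3 and numpy 2.4.6 in Python 3.11.15, drawn with matplotlib 3.10.9 and tested on simulated data.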

Additional observations from a re-analysis of the deposited data

Results flagged for a closer look

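Trbv24, a beta V segment gene, moved in opposite directions in the libraries. Its ratio with over without productive TRA was 1.51 in turnover, from 124 UMIs in 38 cells and 105 UMIs in 30 cells, and 0.643 in autonomy. The difference between the libraries was not tested.

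Contigs that the submitters' software called Multi, with segments of more than 1 chain type, did not enter the split. Cells that held them were left out only in an alternative. At least 1 Multi contig was found in 304 members with productive TRA (32.0%, 29.0 to 35.04) and in 415 without (33.7%, 31.1 to 36.5).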

How the results depend on the processing

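Of 22 alternatives, 16 were set with the design and 6 were added after the data were seen. The ratio of median UMIs per cell stayed within 0.987 to 1.02 under all that gave one. The number of genes at least 1.5-fold higher, 42 as reported, was 347 with a minimum of 20 UMIs, 1 with 500, 922 with none, 25 in cells thinned to 1000 UMIs and 66 against cells with no TRA contig of any kind. The number lower, 29 as reported, was 325, 0 and 1010 with these minimums and 44 with exactly 1 TRA contig in the group with productive TRA. Fewer or more genes are tested under another minimum or fewer UMIs, which moves the counts by construction. Without cells that had a contig called Multi the counts were 29 and 34. The share with productive TRA was 38.99% without TRA contigs of 1 UMI, 64.6% against cells with no TRA contig, 57.3% against unproductive contigs only and 35.97% with exactly 1 TRA contig, since other cells are counted.

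Of the values of 50 named genes, 1066 moved by less than their interval, 32 by more and 1 reversed: Trbv23, at 1.28 against cells with no TRA contig, and the cause was not tested. It was at 0.251 with 1 productive TRB contig. The ratio of Cd69 ranged from 2.57 to 4.05, Cd5 from 1.97 to 3.14, Egr1 from 7.39 to 19.1, Tox from 1.35 to 2.15, Trac from 1.24 to 2.46, Clec2d from 1.48 to 1.99 and Hmgb2 from 0.562 to 0.918. Nr4a1 fell to 1.23 without Multi contigs and 2.59 in thinned cells. No paired analysis was possible because each condition had 1 library. At 100 UMIs a difference under 1.5-fold is not detectable, and intervals do not cover variation between animals.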
